A study of Mus musculus with 24 samples.

Results

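The tubule injury and innate defence genes described here are 10 genes chosen by name: Lcn2, Havcr1, Spp1, Clu, Krt20, Timp1, Cxcl1, Ccl2, Vcam1 and Sox9. Each symbol matched 1 row among the 55416 gene rows of the deposited TPM table, where TPM is a transcript abundance scaled for transcript length and for the total of the library. The values come from 24 single cortical collecting ducts, the stretch of collecting duct within the kidney cortex, which holds principal and intercalated cells. MUT tubules came from 4 mice whose beta-catenin carries Thr551Ala and Ser552Ala per the labels; the legend deposited beside the values gives Ser552Ala alone. WT tubules came from 4 wild-type mice. All were male C57BL/6 mice of 10 weeks, 3 tubules were dissected from each, and every library held polyA RNA of 1 tubule. The labels call every sample vehicle in one field and untreated in another, and name no promoter, Cre or clone for the mutation, nor any shared litter or dissection day.

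These genes are the classic transcripts by which injured kidney epithelium is recognised. Damaged tubule cells release lipocalin-2 (NGAL), osteopontin and clusterin, expose the phagocytic receptor KIM-1, switch on Sox9 during repair, and attract leukocytes with chemokines and the adhesion molecule VCAM-1. Some of them are also part of the healthy collecting duct, whose cells meet bacteria that ascend from the bladder: lipocalin-2 binds bacterial siderophores and so withholds iron. NF-kappaB and STAT3 are the transcription factors best known to drive this programme in epithelium.

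The libraries were compared as TPM, which keep no sequencing depth, so no detection limit is given. The 8 principal cell markers summed to 26964 to 45457 TPM in MUT tubules and 22951 to 54584 TPM in WT tubules, with Aqp2, the vasopressin-regulated water channel, and Fxyd4, a regulator of the sodium pump, the most abundant. The 8 intercalated cell markers, led by the ammonia transporter Rhcg and the anion exchanger Slc26a4, summed to 7047 to 8665 TPM in MUT and 6791 to 9350 TPM in WT tubules, so both cell types of the labelled segment were represented. Markers of neighbouring segments were present at levels that differed widely between libraries. Proximal tubule markers, led by Kap, summed to 19.0 to 1455 TPM in MUT and 22.7 to 6231 TPM in WT tubules, and 0 of 11 tested were higher in MUT (2 of 11 without the 9 tubules named next). Thick ascending limb markers, led by Umod and Egf, summed to 24.6 to 440 TPM in MUT and 23.0 to 4851 TPM in WT tubules. Of these, 0 of 6 tested were higher in MUT (5 of 6 without the 9 tubules). Erythrocyte markers, led by the globins Hbb-bs and Hba-a1, summed to 0.62 to 203 TPM in MUT and 1.48 to 24918 TPM in WT tubules. Of these, 0 of 5 tested were higher in MUT (1 of 5 without the 9 tubules). In the limma test described below all 5 had an unadjusted p under 0.05, as did 4.6% of all genes, and 0 passed after adjustment. The log2 differences, MUT minus WT, were -3.77 for Hbb-bs and -3.40 for Hba-a1. In 9 tubules, 1 MUT and 8 WT, at least 1 of these 3 sums was more than 10 times its median over the 24 tubules, and the genotype differences, list counts and calls most affected are also given without them. In RNA of a whole tubule, fewer cells of a type and less RNA per cell cannot be told apart.

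The 10 genes fell into 2 classes by level, as TPM allow because they are scaled for length. Spp1, Clu and Lcn2 were abundant, at ranks 282, 504 and 1650 of all genes by mean TPM, and were present at 26.3 TPM or more in each of the 24 tubules. Vcam1 ranked 11580, with a mean of 3.16 TPM. The other 6 averaged under 1 TPM over the 24 tubules and were left out of the fit across all genes, which needed a mean of at least 1 TPM. Cxcl1 averaged 0.94, Sox9 0.53, Ccl2 0.46, Timp1 0.13, Havcr1 0.098 and Krt20 0.075 TPM. Secreted osteopontin, clusterin and lipocalin-2 transcripts were thus abundant in these ducts, and those of the receptor, keratin and protease inhibitor that mark damaged tubule were near the bottom of the scale.

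**Figure D1:**
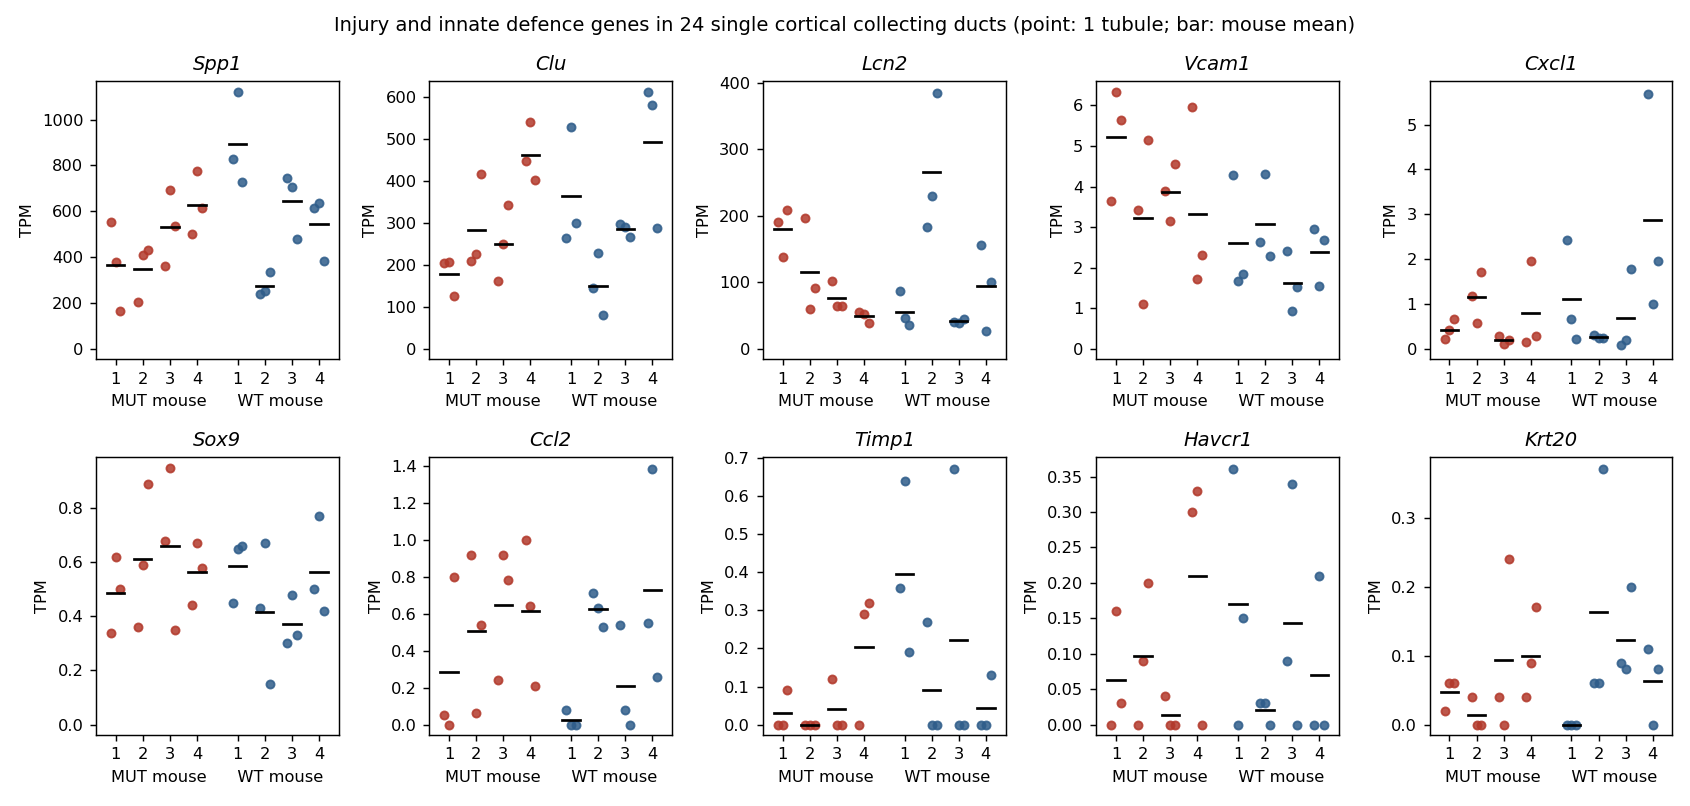
TPM (linear axes, each with its own range) of the 10 genes in every tubule, by mouse, with MUT mice 1 to 4 on the left in red and WT mice 1 to 4 on the right in blue. A point is 1 tubule and a bar the mean of a mouse; Spp1 ran from 166 to 773 TPM in MUT and 237 to 1120 TPM in WT tubules, while Havcr1 and Krt20 stayed under 0.4 TPM.

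Spp1 (ENSMUSG00000029304) encodes osteopontin, a secreted phosphoprotein that binds integrins and calcium crystals. It had 166, 466 and 773 TPM (lowest, median and highest of 12 tubules) in MUT mice, against 237, 625 and 1120 TPM in WT mice. The highest MUT mouse was mouse 4, at a mean of 629 TPM, and the others were at 366, 348 and 529 TPM. WT mouse 1 averaged 892 TPM and its 3 tubules held 829, 1120 and 728 TPM, while WT mouse 2 averaged 275 TPM, with 237, 252 and 336 TPM. The other WT mice averaged 643 and 545 TPM, so the spread of WT mice enclosed all 4 MUT mice.

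Clu (ENSMUSG00000022037) encodes clusterin, a secreted chaperone that keeps damaged proteins soluble and limits complement. It had 127, 238 and 541 TPM (lowest, median and highest) in MUT tubules, against 79.8, 289 and 612 TPM in WT tubules. The mouse means were 180, 284, 251 and 463 TPM in MUT mice 1 to 4, against 365, 151, 285 and 494 TPM in WT mice 1 to 4. Mouse 4 was the highest of each genotype, and WT mouse 2 was the lowest of all.

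Lcn2 (ENSMUSG00000026822) had 38.6, 78.3 and 209 TPM (lowest, median and highest) in MUT tubules, against 26.3, 66.6 and 385 TPM in WT tubules. Its mouse means were 179, 116, 76.7 and 48.7 TPM in MUT mice 1 to 4, against 56.1, 266, 41.3 and 94.2 TPM in WT mice 1 to 4. MUT mouse 1 and WT mouse 2 were thus the highest for Lcn2 and, in their own genotypes, the lowest for Clu. Tubules of 1 mouse could differ widely: in MUT mouse 2 they held 197, 59.3 and 92.1 TPM, and in WT mouse 4 they held 156, 26.3 and 100.1 TPM. In WT mouse 3 they were close together, at 40.4, 38.3 and 45.3 TPM.

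Between genotypes, none of these 3 abundant genes differed by more than the spread between mice. Mouse means of log2(TPM + 1) were compared by limma, with Benjamini-Hochberg adjustment over the 15013 genes tested and a threshold of 0.05; that test called 0% of all genes, although 4.6% had an unadjusted p under 0.05, and 0 of the 4 members tested, of which 1, Vcam1, had an unadjusted p under 0.05. Lcn2 averaged 105 ± 56.7 TPM in MUT mice and 114 ± 103 TPM in WT mice (SD, n = 4 each), with a log2 difference, MUT minus WT, of 0.17 (SE 0.57, 95% interval -1.11 to 1.45, limma adjusted p = 0.997). Spp1 averaged 468 ± 135 TPM in MUT mice and 589 ± 255 TPM in WT mice (SD, n = 4 each), a log2 difference of -0.31 (SE 0.35, interval -1.09 to 0.48, limma adjusted p = 0.985). Clu averaged 294 ± 121 TPM in MUT mice and 324 ± 144 TPM in WT mice (SD, n = 4 each), a log2 difference of -0.07 (SE 0.39, interval -0.95 to 0.80, limma adjusted p = 0.998). The signs of the Lcn2 and Clu differences turned when single mice were left out, over ranges of -0.15 to 0.72 and -0.42 to 0.17, and that of Spp1 ran from -0.63 without WT mouse 2 to -0.07 without WT mouse 1. Without the 9 tubules rich in markers of other segments or of blood the log2 differences were 0.65 for Lcn2, -0.14 for Spp1 and -0.25 for Clu, none past the threshold. Their SEs stand beside a median of 0.113 over all genes tested, and the interval of Lcn2 includes a change of 2-fold in either direction.

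Vcam1 (ENSMUSG00000027962), the adhesion molecule that holds leukocytes by their alpha-4 integrin and that marks a late, failed-repair state of proximal tubule, was the member with the smallest p between genotypes. It had 1.11, 3.77 and 6.33 TPM (lowest, median and highest) in MUT tubules, against 0.94, 2.35 and 4.31 TPM in WT tubules. The mouse means were 5.21, 3.22, 3.86 and 3.33 TPM in MUT mice 1 to 4 and 2.60, 3.07, 1.63 and 2.39 TPM in WT mice 1 to 4. On the TPM scale all 4 MUT means therefore lay above all 4 WT means, as in 1.86% of all genes. On the scale tested, where tubules are averaged as log2(TPM + 1), only 2 of 4 MUT mice lay above every WT mouse, and 0 of the 4 members tested had groups that did not overlap, beside 3.02% of all genes. The log2 difference was 0.49 (SE 0.19, interval 0.06 to 0.92, unadjusted limma p = 0.0301, under 0.05 and higher in MUT as in 2.82% of all genes), and with adjustment over all genes p was 0.980, so Vcam1 did not pass the threshold. Exact permutation of genotype among the 8 mice, in 70 arrangements and two-sided, gave p = 0.0857, where the smallest it can give is 0.0286. Endothelial markers, among which Plvap and Emcn led, were higher in MUT in 9 of 9 tested genes, none past the threshold, with a median log2 difference of 0.25. That median was 0.06, with 8 of 9 higher, without WT mouse 3, 0.14, with 8 of 9 higher, without MUT mouse 3, and 0.54 without the 9 tubules. Their sum ran from 156 to 383 TPM in MUT and 86.6 to 423 TPM in WT tubules. The Spearman coefficient of Vcam1 with their mean was 0.833 over the 8 mouse means and 0.273 over the 24 tubules. With the mean of its mouse subtracted from each tubule it was 0.177. With the proximal tubule markers these coefficients were -0.833, -0.255 and 0.341 in that order. The part of either set of markers in the Vcam1 values was not tested.

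**Figure D2:**
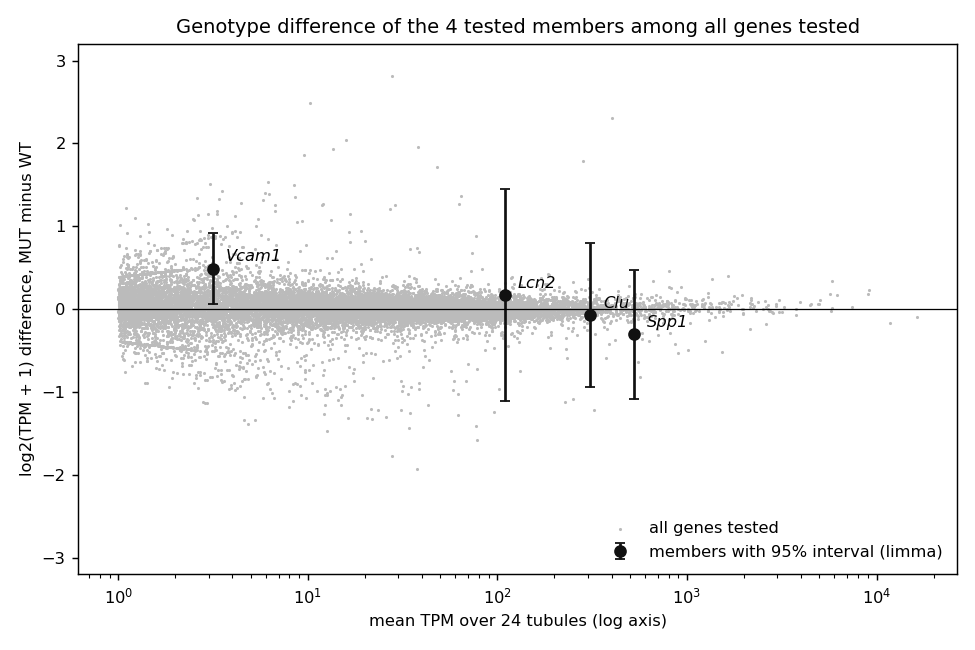
Log2(TPM + 1) difference between genotypes, MUT minus WT, against the mean TPM over 24 tubules (log axis) for all genes tested (grey) and the 4 members tested (black, with 95% limma intervals). The intervals of Lcn2, Clu and Spp1 cross 0, and that of Vcam1 runs from 0.06 to 0.92 before any adjustment for the number of genes. The 2 genes outside the plotted range are the globins Hbb-bs and Hba-a1, both lower in MUT.

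Transcripts of both chemokines were low. Cxcl1, which recruits neutrophils through Cxcr2, was above 0 TPM in each of the 24 tubules and reached 1 TPM or more in 3 MUT and 5 WT tubules. Its MUT tubules had 0.10, 0.35 and 1.96 TPM (lowest, median and highest), against 0.08, 0.49 and 5.69 TPM in WT tubules, and 5.69, 1.00 and 1.95 TPM were the 3 tubules of WT mouse 4. Its log2 difference was -0.28 and the exact permutation p was 0.543 (n = 4 each). Ccl2, which attracts monocytes, was above 0 in 11 MUT and 9 WT tubules, with medians of 0.59 TPM in MUT and 0.40 TPM in WT tubules and highest values of 1.00 TPM in MUT and 1.38 TPM in WT (log2 difference 0.12, exact permutation p = 0.60, n = 4 each).

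Sox9, a transcription factor of the developing nephron that returns in regenerating tubule, was above 0 in each of the 24 tubules, yet never reached 1 TPM. It ran from 0.34 to 0.95 TPM in MUT and 0.15 to 0.77 TPM in WT tubules, and the mouse means overlapped (log2 difference 0.09, exact permutation p = 0.20, n = 4 each). Havcr1, the gene of KIM-1, was listed at 0 in 5 MUT and 5 WT tubules and never exceeded 0.33 TPM in MUT or 0.36 TPM in WT. Krt20, a keratin that appears in injured tubule, was listed at 0 in 3 MUT and 4 WT tubules and reached 0.24 TPM in MUT and 0.37 TPM in WT. Timp1, the secreted inhibitor of matrix metalloproteinases, was listed at 0 in 8 MUT and 6 WT tubules and reached 0.32 TPM in MUT and 0.67 TPM in WT. For these 3 genes the exact permutation p was 0.914, 0.571 and 0.229 in that order (n = 4 each), and their log2 differences of -0.01, -0.03 and -0.13 changed sign under some of the alternatives tried. Proximal tubule, the main site of Havcr1 after injury in mouse, was represented by the marker sums given above.

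The 3 abundant members differed between mice of the same genotype. A limma F test on single tubules asked whether mice of 1 genotype differed by more than the tubules within them, and it called 15.6% of the 15013 genes and 3 of the 4 members tested. Lcn2 had F = 7.91 (adjusted p = 0.00610), Clu had F = 6.38 (adjusted p = 0.0126) and Spp1 had F = 5.40 (adjusted p = 0.0225), while Vcam1 had F = 1.10 (adjusted p = 0.535). The mouse carried an estimated 0.65, 0.59 and 0.54 of the variance among tubules of a genotype for Lcn2, Clu and Spp1, beside a median of 0.22 over all genes. Among genes within 1.5-fold of their mean TPM the median share was 0.29, 0.39 and 0.39 in that order. Of those genes 93.8%, 85.4% and 79.5% had a lower F. Called genes are more frequent at high levels: among genes within 1.5-fold of the mean TPM of Lcn2, Spp1 and Clu, 23%, 31.4% and 31.8% were called. The calls rested on WT mouse 2, which was highest for Lcn2 and lowest for Spp1 and Clu. Without it, 0 of 4 members were called, with adjusted p of 0.141 for Lcn2, 0.239 for Spp1 and 0.0875 for Clu. Without MUT mouse 4, Lcn2 alone was called, with adjusted p of 0.0557 for Spp1 and 0.0596 for Clu, and without WT mouse 1 the adjusted p of Spp1 was 0.0698. Without the 9 tubules rich in markers of other segments or of blood, which left 11 MUT tubules and 1 tubule in each of the 4 WT mice, 0 of 4 were called, with adjusted p of 0.0994 for Lcn2, 0.427 for Spp1 and 0.25 for Clu.

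Tubules of the same mouse also varied more in these genes than in others of like abundance. The mean within-mouse SD of log2(TPM + 1) of Lcn2 was 0.46 in MUT and 0.66 in WT mice, where genes of a similar level had medians of 0.0885 in MUT and 0.106 in WT. For Lcn2, 98.9% of the 1511 genes of similar level had a smaller spread, for Clu 96.8% of 471, for Spp1 96.1% of 258 and for Vcam1 74.5% of 1903. The largest ratio between tubules of 1 mouse was 5.95 for Lcn2 (WT mouse 4), 3.33 for Spp1 (MUT mouse 1) and 2.86 for Clu (WT mouse 2). This spread was 0.57 in MUT and 0.34 in WT mice for Spp1 and 0.43 in MUT and 0.49 in WT mice for Clu. Tested between genotypes on the log2 scale with limma, 0 of the 4 members passed (adjusted p of 0.912 or more) and 0 had an unadjusted p under 0.05, beside 0.00666% of all genes past the threshold, which is 1 gene, and 4.83% with an unadjusted p under 0.05.

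Lcn2 was high in tubules where Spp1 and Clu were low. Over the 24 tubules the Spearman coefficient was -0.74 between Lcn2 and Spp1 and -0.66 between Lcn2 and Clu, while Spp1 and Clu went together at 0.67. These are descriptions: the points share mice, and the fixed total of TPM couples genes of 1 library. With the mean of its mouse subtracted from each tubule the coefficients were -0.345, -0.40 and 0.51, so the opposition was present within mice but smaller. Without WT mouse 2 they were -0.64 and -0.54 for Lcn2 with Spp1 and with Clu over the other 21 tubules. Lcn2 went with principal cell markers, at 0.80 over all tubules and 0.745 within mice, and against intercalated cell markers within mice, at -0.58. The sum of the principal cell markers was 43972 TPM in MUT mouse 1 and 49525 TPM in WT mouse 2, the mice highest in Lcn2, and between 25720 and 32368 TPM in the other 6. Over the 8 mouse means the coefficient of Lcn2 was 0.595 with principal cell markers. With proximal tubule, distal and connecting tubule, and thick ascending limb markers it was -0.905, -0.81 and -0.786 over mouse means, but 0.145, 0.01 and 0.29 within mice. Spp1 had a coefficient of -0.75 with principal cell markers, 0.74 with macrophage and leukocyte markers, led by Cd74 and H2-Aa, and 0.68 with markers of the distal convoluted and connecting tubule, led by S100g and Calb1. Within mice these were -0.35, 0.31 and 0.18. Macrophages also make Spp1 in injured tissue, and the part of these cell types in the Spp1 values was not tested: the macrophage markers summed to 65.7 to 1178 TPM in MUT and 54.5 to 1113 TPM in WT tubules. Spp1 and Clu also had coefficients of 0.64 and 0.67 with thick ascending limb markers over all tubules, and of 0.23 and 0.18 within mice.

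**Figure D3:**
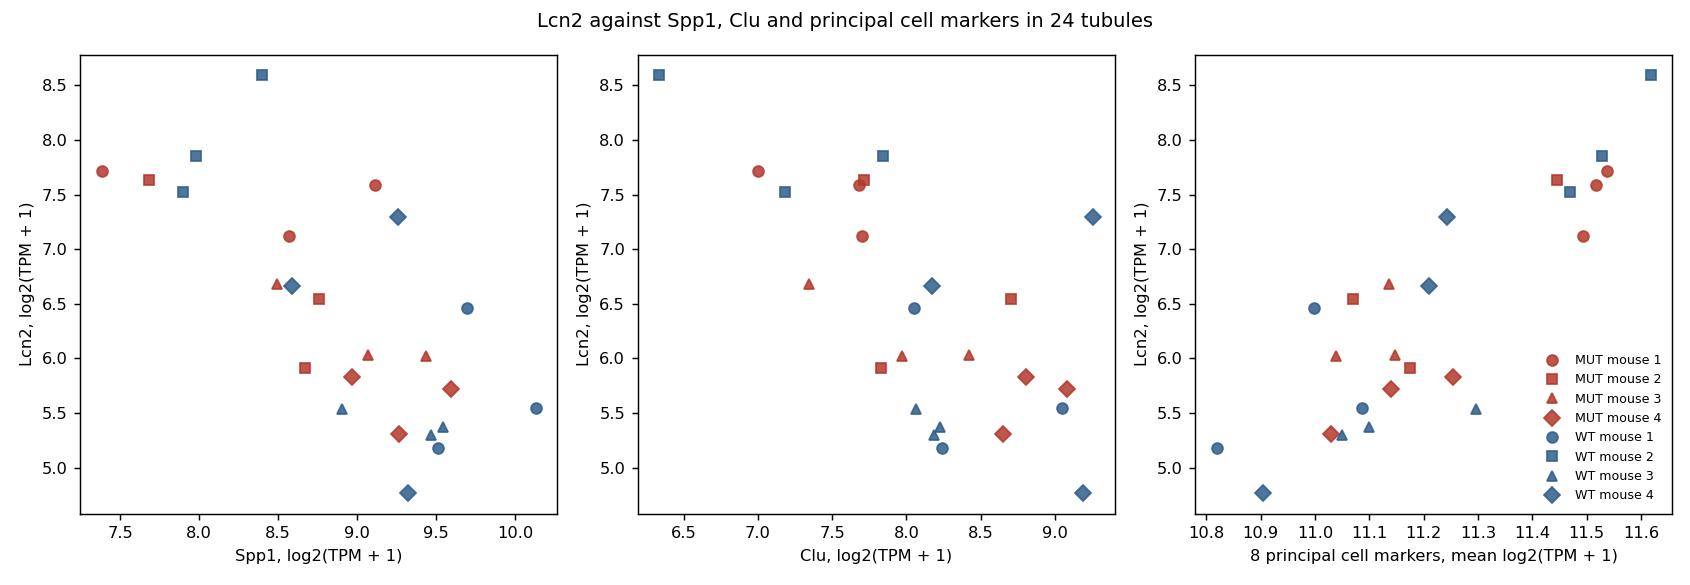
Lcn2 against Spp1 (left), Clu (middle) and the mean of 8 principal cell markers (right), all as log2(TPM + 1), in 24 tubules; MUT is red, WT is blue and the marker shape gives the mouse. Lcn2 is high where Spp1 and Clu are low (Spearman -0.74 and -0.66) and where the principal cell markers are high (0.80), and the tubules of WT mouse 2 (blue squares) and MUT mouse 1 (red circles) lie at the high end of Lcn2.

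Between tubules of 1 mouse, Lcn2, Vcam1 and Cxcl1 went with the NF-kappaB genes, and Lcn2 and Vcam1 went with other lists too. With mouse means removed, the mean of the NF-kappaB list had coefficients of 0.72 with Lcn2, 0.71 with Vcam1 and 0.60 with Cxcl1, and of -0.16 with Spp1 and -0.03 with Clu. With the STAT3 list the coefficients were 0.66, 0.70 and 0.37, and with the innate defence list 0.32, 0.45 and -0.21, for Lcn2, Vcam1 and Cxcl1 in that order. With the receptors, partners and substrates of the members they were 0.50, 0.735 and 0.14, and with the nearest relatives 0.61, 0.66 and 0.17. With the other injury and repair genes they were 0.61 for Lcn2 and 0.38 for Vcam1. Over tubules without that subtraction, the coefficient of Lcn2 with the NF-kappaB list was -0.07 and that of Vcam1 was 0.15. For these 2 genes the coefficients with that list were thus high within mice alone. For Cxcl1, Clu and Spp1 it was 0.61, 0.51 and 0.21 over all tubules. Over the 8 mouse means it was -0.14 for Lcn2, -0.24 for Vcam1, 0.71 for Cxcl1, 0.62 for Clu and 0.38 for Spp1. The order of the genes thus differed between these scales. Without the 9 tubules each WT mouse kept 1 tubule, which equals its own mouse mean. These lone tubules entered as ties. The within-mouse coefficient with the NF-kappaB list then rested on the 11 MUT tubules kept, at 0.50 for Lcn2 and 0.64 for Vcam1. Without the 11 tubules over 5 times the median in markers of other segments or blood it was 0.395 for Lcn2 and 0.953 for Vcam1. There MUT mouse 4 also kept only 1 tubule, so these values rested on the other MUT mice. Over tubules without the 9, the coefficient was -0.36 for Lcn2 and -0.20 for Vcam1. Within mice Cxcl1 had a coefficient of 0.79 with the other injury and repair genes and of 0.51 with Lcn2. With Lcn2 it was 0.14 over all tubules and -0.33 over the 8 mouse means. Sox9 went with the intercalated cell markers within mice, at 0.71, and against the principal cell markers, at -0.65. The genes most like Lcn2 within mice among all genes tested were Il34, a cytokine ligand of the Csf1 receptor that tubules release after injury in mouse (0.94), the membrane mucin Muc20 (0.94) and the glycolytic enzyme Aldoc (0.94). Those most like Spp1 were Nrbp1, Mbnl1 and Nedd9, at 0.80, 0.79 and 0.77, those most like Clu were the lysosomal cathepsin A gene Ctsa, Gm11575 and the calcium channel gene Itpr3, at 0.82, 0.81 and 0.81, and those most like Vcam1 were Dlc1, the nuclear importer gene Kpna2 and D330041H03Rik, at 0.80, 0.80 and 0.77. As the highest of 15013 genes, such coefficients are high by selection.

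**Figure D4:**
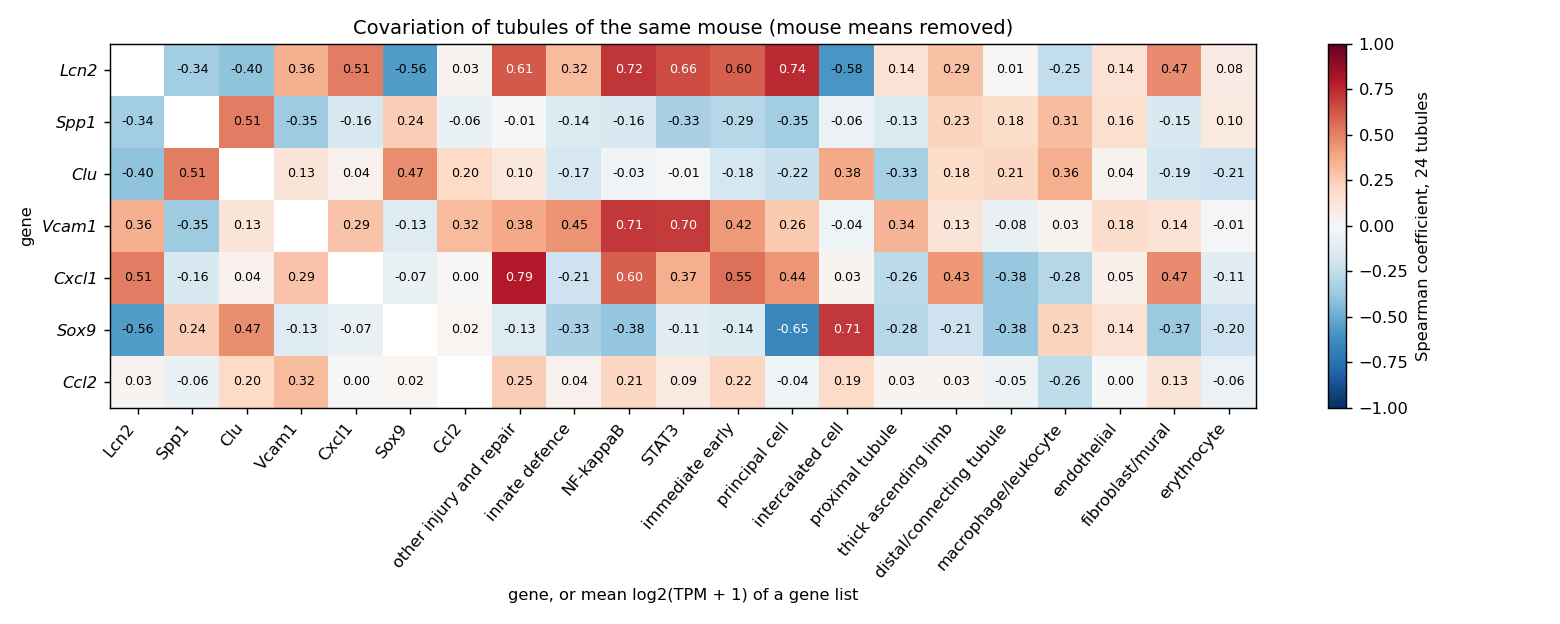
Spearman coefficients over 24 tubules, after the mean of its mouse was subtracted from each, between 7 of the genes (rows; Timp1, Havcr1 and Krt20, mostly at or near 0, are left out) and each other or the mean log2(TPM + 1) of a gene list (columns). Colour runs from -1 (blue) to 1 (red): Lcn2, Vcam1 and Cxcl1 are red in the NF-kappaB column (0.72, 0.71 and 0.60), and Lcn2 and Sox9 have opposite colours in the columns of principal and intercalated cells.

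Lcn2 and Cxcl1 went together within mice (0.51) but not over all tubules (0.14) or over mouse means (-0.33). Within mice Spp1 did not go with them. Because of these within-mouse values, the 250 bases before the start of each gene are shown from the RefSeq promoter table. Its build was GRCm38.p6, older than the GRCm39 of the deposited values. Capitals mark matches to 5 motifs searched on both strands: NF-kappaB (GGGA, then 4 bases of any kind, then CC, in 17.6% of the 32851 promoter windows of the table), C/EBP (TTNNGNAA, 36.8%), AP-1 (TGANTCA, 6.75%), TCF/LEF, the partners of beta-catenin (CTTTGAT, 3.21%), and the TATA box (TATAAA, 12.4%). The table held 9 windows for 6 of the 10 genes.
Lcn2, chr2:32387740-32387989, minus strand: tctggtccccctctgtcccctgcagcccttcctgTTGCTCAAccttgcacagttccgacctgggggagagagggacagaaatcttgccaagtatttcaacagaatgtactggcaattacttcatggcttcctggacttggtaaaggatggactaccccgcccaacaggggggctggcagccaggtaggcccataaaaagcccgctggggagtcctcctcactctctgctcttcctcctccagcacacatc
Cxcl1, chr5:90890995-90891244, plus strand: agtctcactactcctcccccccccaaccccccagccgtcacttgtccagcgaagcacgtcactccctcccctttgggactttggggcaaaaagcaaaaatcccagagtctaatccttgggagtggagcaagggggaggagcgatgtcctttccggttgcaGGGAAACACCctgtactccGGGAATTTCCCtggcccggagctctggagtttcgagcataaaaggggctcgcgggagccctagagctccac
Spp1, first of 2 windows, chr5:104434861-104435110, plus strand: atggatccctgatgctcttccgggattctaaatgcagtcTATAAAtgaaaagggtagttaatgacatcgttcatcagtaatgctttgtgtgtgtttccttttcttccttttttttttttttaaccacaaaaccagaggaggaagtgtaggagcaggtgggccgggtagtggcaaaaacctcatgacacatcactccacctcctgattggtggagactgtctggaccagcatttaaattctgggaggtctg
The Cxcl1 window held NF-kappaB matches at -90 to -81 and -71 to -62, counted from the start, and the second overlaps a match on the other strand at -70 to -61, so its capitals run together. The Lcn2 window held a C/EBP match at -216 to -209 on the strand opposite to the gene, and C/EBP letters were also in the second Spp1 window, at -156 to -149 and -15 to -8, and in 1 window each of Havcr1, Krt20 and Timp1. The Spp1 window shown held TATAAA at -211 to -206. AP-1 and TCF/LEF letters were in 0 of the 9 windows. A match is a description of the letters and not a site of binding.

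Around the members, the pathways they belong to were expressed without a call between genotypes. Of 36 innate defence and epithelial alarm genes 24 were tested, 18 higher and 6 lower in MUT, with 0 past the threshold and a median log2 difference of 0.07, beside a median of 0.01 over all genes tested, of which 54.3% were higher in MUT. The count was 14 higher and 10 lower without MUT mouse 4 (median 0.04), 15 and 9 without MUT mouse 1 (0.06), 15 and 9 without the 9 tubules (0.14), and 18 and 6 without MUT mouse 2 (0.14). Defb1, an antimicrobial beta-defensin, averaged 1350 ± 61.6 TPM in MUT and 1224 ± 104 TPM in WT mice (SD, n = 4 each), and Wfdc2, a secreted protease inhibitor, 978 ± 45.1 TPM in MUT and 936 ± 7.14 TPM in WT mice. Tlr4, the receptor for bacterial lipopolysaccharide, averaged 1.84 ± 0.14 TPM in MUT and 1.10 ± 0.26 TPM in WT mice (log2 difference 0.44, SE 0.15, unadjusted limma p = 0.0136, adjusted p = 0.980).

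Of 32 other injury and repair genes 28 were tested, 13 higher and 15 lower in MUT, with a median log2 difference of -0.02 and 0 past the threshold. Lgals3, the carbohydrate-binding galectin-3, averaged 1667 ± 137 TPM in MUT and 1616 ± 134 TPM in WT mice (SD, n = 4 each), and the membrane-binding Anxa2 242 ± 33.2 TPM in MUT and 221 ± 61.1 TPM in WT mice. Il18, an inflammasome cytokine, had the smallest p of the list (log2 difference -0.24, SE 0.15, unadjusted limma p = 0.150). Like the abundant members, this list varied with the mouse: 14 of its 28 tested genes passed the F test between mice, beside 15.6% of all genes. Among genes near Lcn2, Spp1 and Clu in level 23%, 31.4% and 31.8% passed. So did 8 of 15 immediate early genes and 6 of 8 principal cell markers, against 3 of 24 innate defence and 5 of 20 NF-kappaB genes. Injury and repair genes called between mice included Gdf15, a stress cytokine (limma F adjusted p = 0.00103), which averaged 179 ± 99.9 TPM in MUT and 280 ± 235 TPM in WT mice (SD, n = 4 each).

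Of 25 receptors, binding partners and substrates of the members 12 were tested, 6 higher and 6 lower in MUT, with 0 past the threshold. The tetraspanin Cd63, which binds TIMP-1, averaged 522 ± 23.2 TPM in MUT and 531 ± 28.5 TPM in WT mice (SD, n = 4 each), and the integrin subunit Itgb5, a receptor for osteopontin, 151 ± 7.41 TPM in MUT and 160 ± 9.20 TPM in WT mice. Slc22a17, the lipocalin-2 receptor of the distal nephron, averaged 146 ± 21.3 TPM in MUT and 141 ± 30.0 TPM in WT mice and was among the 2 genes of this list that differed between mice (limma F adjusted p = 0.00305). Adam10, a sheddase, had the smallest p (log2 difference 0.10, SE 0.05, unadjusted limma p = 0.102). Of 26 nearest relatives of the members 15 were tested, 8 higher and 7 lower. The simple-epithelial keratins were abundant where Krt20 was not: Krt7 averaged 652 ± 52.0 TPM in MUT and 644 ± 50.6 TPM in WT mice, and Krt18 480 ± 58.6 TPM in MUT and 507 ± 67.8 TPM in WT mice (SD, n = 4 each). The interferon-induced chemokine Cxcl10 had the smallest p (log2 difference 0.73, SE 0.42, unadjusted limma p = 0.117).

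Of the 20 tested genes of the NF-kappaB list 12 were higher and 8 lower in MUT, and of the 10 tested genes of the STAT3 list 4 were higher and 6 lower, with 0 past the threshold in each. Nfkbia, the feedback inhibitor of NF-kappaB, averaged 152 ± 45.3 TPM in MUT and 225 ± 97.4 TPM in WT mice (SD, n = 4 each), and Tnfaip2, an NF-kappaB target, 121 ± 6.39 TPM in MUT and 123 ± 30.4 TPM in WT mice. The interleukin-1 receptor gene Il1r1 had the smallest p of that list (log2 difference 0.14, SE 0.06, unadjusted limma p = 0.0608). Stat3 itself averaged 123 ± 6.69 TPM in MUT and 127 ± 4.42 TPM in WT mice, and Jak1, its kinase, 67.7 ± 1.79 TPM in MUT and 66.7 ± 1.69 TPM in WT mice (SD, n = 4 each). Cebpd, a C/EBP factor of the acute-phase response, averaged 7.56 ± 1.07 TPM in MUT and 11.9 ± 2.38 TPM in WT mice (log2 difference -0.56, SE 0.16, unadjusted limma p = 0.00721, adjusted p = 0.980).

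The immediate early genes, which also mark handling of tissue before lysis, were lower in MUT in 15 of 15 tested genes, with a median log2 difference of -0.31 and 0 past the threshold. Fos averaged 1060 ± 431 TPM in MUT and 1441 ± 697 TPM in WT mice, and Junb 932 ± 268 TPM in MUT and 1148 ± 566 TPM in WT mice (SD, n = 4 each). Dusp1, a phosphatase that switches off MAP kinases, had the smallest p (log2 difference -0.87, SE 0.50, unadjusted limma p = 0.116). This count depended on which animals were included: 10 of 15 were lower without WT mouse 1, 11 of 15 without MUT mouse 4, and 6 of 15 without the 9 tubules rich in markers of other segments or of blood. The sum of the 18 genes fixed for the list ran from 1821 to 8881 TPM in MUT and 2218 to 15423 TPM in WT tubules. Within mice its mean went with Lcn2 at 0.60 and with Cxcl1 at 0.55, and its part in those values was not tested.

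**Figure D5:**
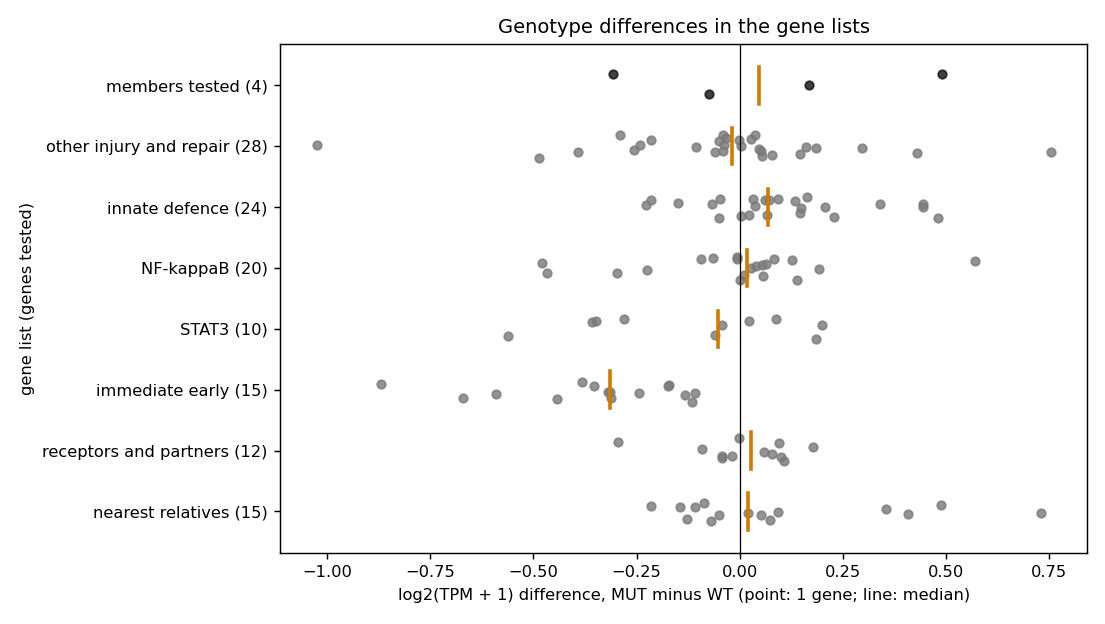
Log2(TPM + 1) difference between genotypes, MUT minus WT, for each tested gene (point) of the 10 members and of 7 gene lists, with the median as a vertical line and the number tested in brackets. The immediate early genes all lie left of 0 (median -0.31), the other lists lie on both sides, and 0 genes of these lists passed the threshold.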

How the data were processed

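RNA of 24 single microdissected cortical collecting ducts was extracted with a Zymo kit, made into cDNA with a SMART-Seq V4 kit and sequenced on an Illumina NovaSeq, per the labels' protocols. Tools named in the submitters' processing notes are STAR and RSEM 1.3.3, with GRCm39 as build; the annotation release is not given in the sources used here. TPM per gene were deposited by the authors. Each library summed to between 999999 and 1000001 TPM, so depth is unknown; 4 columns with the authors' means, ratio and p-value were not used.

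TPM were transformed as log2(TPM + 1), which understates changes of low genes, and genes averaging 1 TPM or more over the tubules were kept. The replicate was the mouse: its 3 tubules were averaged, and 4 MUT and 4 WT mice were compared by limma 3.58.1 in R 4.3.3 with a mean-variance trend. An F test on single tubules compared mice within genotype, and log2 of the within-mouse SD plus 0.1 was compared between genotypes. Members under the filter were compared by two-sided exact permutation. Calls were made at a Benjamini-Hochberg adjusted p under 0.05. Each limma step was run on simulated data, where recovery of planted changes was required of the genotype and between-mouse fits but not of the fit of spread. Alternatives were other pseudocounts, filters and scalings, other ways to average or block the tubules, and leaving out mice or tubules. Animals are numbered separately in the labels, while tubules of 1 mouse are not independent.

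The members and gene lists were chosen with earlier results of these data known. Other genes are named by a rule: in a pathway list the 2 most abundant and the 1 with the smallest p, in a marker list the 2 most abundant, and for each tested member the 3 most alike; 1 of these genes is not reported here. Slc22a17 and Gdf15 were named after their values were seen.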

Additional observations from a re-analysis of the deposited data

How the results depend on the processing

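The genotype differences of Lcn2, Spp1, Clu and Vcam1 were past the threshold under none of the alternatives run, and 0 of these members was called in any. Vcam1, which was not tested with the filter at 10 TPM, was positive in the 42 others, between 0.251 with a pseudocount of 5 and 0.633 with one of 0.1, and Spp1 was negative in all 43. Leaving out single mice or tubules gave log2 differences, MUT minus WT, of -0.154 to 0.718 for Lcn2, -0.629 to -0.0662 for Spp1, 0.354 to 0.598 for Vcam1, -0.417 to 0.167 for Clu, -0.0515 to 0.03 for Havcr1, -0.068 to 0.00129 for Krt20, -0.474 to 0.00299 for Cxcl1 and -0.00713 to 0.227 for Ccl2. Lcn2 turned without WT mouse 3 or MUT mouse 1, and Clu without WT mouse 4 or MUT mouse 1, among others; the cause was not tested. Without the 9 tubules over 10 times the median in markers of other segments or blood, a choice made after seeing the data, differences were 0.00876 for Krt20, 0.0572 for Timp1 and -0.0117 for Sox9. At 5 times the median, which left out 11, they were 0.728 for Lcn2, -0.106 for Spp1, -0.262 for Clu, 0.0338 for Havcr1, 0.0599 for Timp1 and 0.0765 for Cxcl1.

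Over all genes, 1 was called between genotypes with the mouse as a random effect over 24 tubules and 1 without those 9 tubules, and between 0 and 1 when mice or tubules were left out singly. Genes called between mice numbered 1416 with no filter, where more genes are tested, 210 and 94 without the 9 and the 11 tubules, where fewer tubules remain, and 1095 to 2565 without single mice, against 2341. Members called between mice numbered 0 without the 9 and 0 without the 11 tubules, and 0 to 3 without single mice; with no filter the adjusted p of Spp1 was 0.0661. Without the 11 tubules adjusted p was 0.276 for Lcn2, 0.618 for Spp1 and 0.348 for Clu. Genes called for spread between tubules numbered 10 with no filter, 6 with a filter at 10 TPM and 1 to 8 without single mice, against 1. Under median-ratio scaling and under quantile normalization, 15 of 15 immediate early genes were lower and 9 of 9 endothelial markers higher in MUT.

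Same-numbered mice of the genotypes did not deviate together (correlations across genes of -0.0382 to 0.0194), while unlike-numbered mice ran from -0.296 to 0.369. These values cannot decide whether same-numbered mice shared a litter or dissection day, which the labels do not name. The main comparison did not pair them. With the number as a replicate block 0 genes were called and 483 had an unadjusted p under 0.05, against 691, and the Vcam1 difference was 0.489. Depth is unknown from TPM, so a listed 0 of Havcr1, Krt20, Timp1 or Ccl2 sets no upper limit.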
